A study of Mus musculus with 6 samples.

Results

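The genes described here are integrin subunits, the immunoglobulin-like molecules that integrins bind, junctional adhesion molecules and a few partner genes of cell adhesion. They are 36 listed genes, chosen by symbol and with earlier results of these data known. Of these, 33 were matched to the 23413 genes of the deposited table, and Icam4, Itgb8 and Itga7 are not analysed here. The cells were hematopoietic stem cells of wild-type mice, taken from bone marrow and sorted into an F4/80 positive and an F4/80 negative group, with 3 libraries per group and 2000 to 5000 sorted cells behind each library. F4/80 is a surface protein of macrophages encoded by Adgre1. The study as titled is about c-Kit and trogocytosis, in which a cell takes membrane from a neighbour. The labels give the sort as stem cells without naming the other markers of the gate, and they state neither age, sex nor pooling of the mice.

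Integrins are receptors built from 1 alpha and 1 beta subunit, and the pair decides which ligand is bound. Itgb1 pairs with many alpha subunits that bind matrix proteins, while Itgb2 pairs with Itgal, Itgam, Itgax and Itgad on leukocytes. Pairs of Itgb2 bind immunoglobulin-like proteins on other cells, and those with Itgam or Itgax bind the complement fragment iC3b and fibrinogen. In the marrow, the Itga4 and Itgb1 pair on stem cells binds Vcam1 on stroma, endothelium and macrophages, which is a classic retention contact. Junctional adhesion molecules sit at contacts of endothelial cells and also on blood stem cells. Talin and kindlin bind the tails of beta subunits inside the cell and switch integrins to their binding state.

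Total counts ran from 18637526 to 21042379 per library, and 14451 genes passed the filter on low counts. Levels of 1 gene are given as CPM, counts scaled to library size with trimmed-mean (TMM) factors, and comparisons between genes use the deposited FPKM, which is per length. A call is an adjusted p below 0.05 by edgeR's quasi-likelihood test over all 14451 genes. All 15 listed stem cell markers passed the filter, and Kit, the c-Kit gene, averaged 1444 ± 206 CPM in F4/80 positive and 1732 ± 219 CPM in F4/80 negative libraries (SD, n = 3 each). Adgre1 measured 35.9, 39.0 and 21.3 CPM in positive replicates 1 to 3, against 2.88, 1.41 and 2.62 CPM in negative replicates 1 to 3. The groups lay apart as the sort labels say. Whether replicates are different animals is not stated, and the p-values therefore cover only the spread among these libraries, which may be technical.

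Among the 29 members that passed the filter, Vcam1, Itgad, Itgal, Itgb2 and Fermt3 rose in F4/80 positive cells, while Icam1, Jam2, Jam3, F11r, Esam, Alcam, Itga9 and Itgb7 fell. These are 5 higher and 8 lower genes, 17.2% and 27.6% of the tested members. Of all tested genes 9.65% were called higher and 10.9% lower, 20.5% in all. The median log2 fold change was -0.06 over the members and -0.03 over all tested genes. The groups did not overlap in CPM for 16 of the 29 members, against 40.6% of all tested genes, 20.1% higher and 20.5% lower. The authors' deposited table calls the same 13 members in the same directions and no other member, by the authors' own adjusted p. Integrin subunits and immunoglobulin-like molecules differed in their counts. Of 16 tested integrin subunits 3 rose and 2 fell, with a median log2 fold change of -0.04. Of 9 tested immunoglobulin-like molecules 1 rose and 6 fell, with a median of -0.70. The 9 include Pecam1, Esam and Alcam, which are homophilic. Of the 3 tested integrin ligands outside the junctional class, Vcam1 rose, Icam1 fell and Icam2 was not called, with a median of 0.26. No test of the difference between these classes was made, since the members were chosen with results known.

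**Figure D1:**
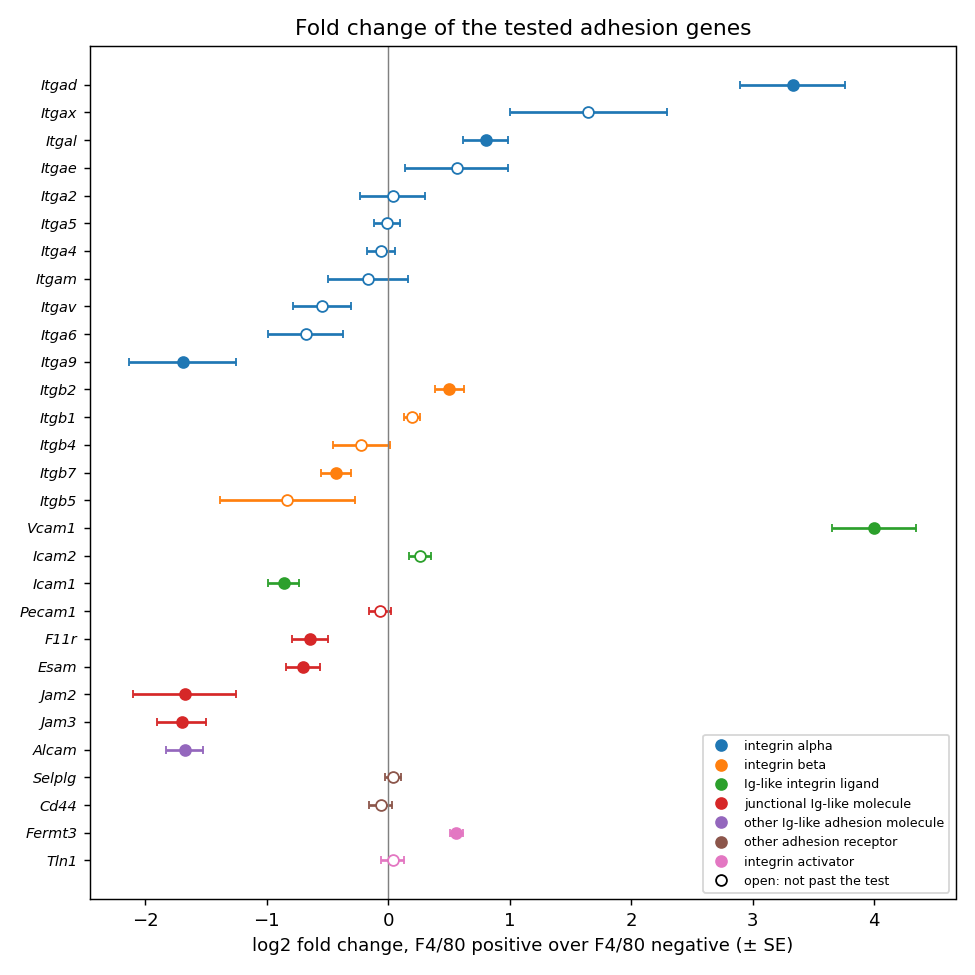
Log2 fold change of the 29 tested adhesion genes, F4/80 positive over F4/80 negative, with bars of 1 standard error. Colours give the class and open circles mark genes that did not pass the test. Vcam1 at 4.00 and Itgad at 3.33 lie far to the right, and 4 of the 5 junctional genes lie to the left with filled circles.

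Vcam1, the vascular cell adhesion molecule that binds Itga4, Itga9 and Itgad integrins, had the largest change of the 29. It measured 203, 194 and 99.9 CPM in positive replicates 1 to 3, against 11.4, 13.4 and 6.21 CPM in negative replicates 1 to 3. Every positive library was above every negative one, and replicate 3 was the lowest in both groups. The fold within each replicate number was 17.8, 14.5 and 16.1. The log2 fold change was 4.00 (SE 0.34, edgeR adjusted p = 0.000659), or 16.0-fold. The gene lies on GRCm39 chromosome 3, 115903598 to 115923337, minus strand, and is protein-coding. In bulk RNA, fewer cells of a type and less RNA per cell cannot be told apart. Macrophage markers moved with this result, with 22 of 26 tested higher and 0 lower. Their summed level was 3507, 4042 and 2897 CPM in positive replicates 1 to 3, against 1871, 1992 and 1888 CPM in negative replicates 1 to 3. No macrophage marker was at 0 in all positive libraries, and Marco, a scavenger receptor, was at 0 in all negative ones. C1qa, a complement gene of macrophages, measured 50.6, 63.6 and 25.3 CPM in positive replicates 1 to 3. Replicate 3 was the lowest positive library for C1qa, Vcam1 and Adgre1. Among negative libraries, Adgre1 was lowest in replicate 2 and the summed markers in replicate 1. The part of these markers in the Vcam1 result was not tested.

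Icam1, a ligand of the Itgal and Itgam integrins that inflammation induces, moved the other way. It measured 40.7, 49.1 and 46.7 CPM in positive libraries, against 70.2, 82.8 and 95.1 CPM in negative libraries. The groups did not overlap, and the log2 fold change was -0.86 (SE 0.13, edgeR adjusted p = 0.00338), or 1.82-fold lower. Icam1 lies on GRCm39 chromosome 9, 20927281 to 20940113, plus strand. Icam2, the constitutive ligand of the Itgal integrin, averaged 92.0 ± 5.30 CPM in F4/80 positive and 76.7 ± 4.94 CPM in F4/80 negative libraries (SD, n = 3 each). All 3 positive libraries were above the negative ones, yet at 0.26 on the log2 scale (SE 0.09) the difference missed the threshold (edgeR adjusted p = 0.076). It passed when blocked by replicate number (log2 fold change 0.26, SE 0.07, edgeR adjusted p = 0.0268).

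Promoter windows of 3 immunoglobulin-like genes that fell are shown, as the sequence next to the starts of genes that moved together, with 250 bases before and 50 after the start. They come from RefSeq on GRCm38.p6, not the GRCm39 build of the counts, and 20 of the 36 members, 6 of them called, had a window. In Icam1 (chr9:21015690-21015989, plus strand) the first run of capitals is a match to the NF-kB consensus and the second a match to the STAT element TTCNNNGAA, where N is any base. In F11r (chr1:171437311-171437610, plus strand) and Alcam (chr16:52453032-52453331, minus strand) capitals mark the SP1 box GGGCGG on either strand, and in Alcam also the ETS core AGGAAG. The Icam1 window holds the SP1 box as well, in 2 places left in lower case.
Icam1: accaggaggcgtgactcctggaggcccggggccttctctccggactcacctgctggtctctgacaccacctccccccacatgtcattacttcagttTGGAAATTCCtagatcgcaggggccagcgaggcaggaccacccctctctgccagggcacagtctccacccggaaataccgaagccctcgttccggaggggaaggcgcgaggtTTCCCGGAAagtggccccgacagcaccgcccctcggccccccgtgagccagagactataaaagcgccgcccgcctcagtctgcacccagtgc
F11r: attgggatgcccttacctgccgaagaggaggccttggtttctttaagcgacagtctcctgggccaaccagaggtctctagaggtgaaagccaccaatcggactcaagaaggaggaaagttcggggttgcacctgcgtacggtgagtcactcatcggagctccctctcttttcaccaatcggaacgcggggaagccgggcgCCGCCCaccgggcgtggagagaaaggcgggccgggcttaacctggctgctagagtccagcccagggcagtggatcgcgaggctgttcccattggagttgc
Alcam: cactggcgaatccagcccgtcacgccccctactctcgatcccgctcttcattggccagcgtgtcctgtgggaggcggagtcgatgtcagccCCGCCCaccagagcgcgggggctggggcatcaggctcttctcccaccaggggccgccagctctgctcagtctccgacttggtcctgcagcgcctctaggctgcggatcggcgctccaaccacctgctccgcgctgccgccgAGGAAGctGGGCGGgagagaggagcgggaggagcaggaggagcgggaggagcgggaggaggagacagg
On both strands, the NF-kB consensus was found in 16.6% of 32544 RefSeq windows of this length, the STAT element in 8.33%, the SP1 box in 35.9% and the ETS core in 35.1%. The matches are letters in a window, and nothing in these data shows binding there.

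Of the 5 junctional molecules 4 fell and 0 rose, with a median log2 fold change of -0.70. Jam3 (JAM-C), which binds Jam2 and the Itgam integrin, measured 6.70, 7.18 and 5.14 CPM in positive libraries, against 17.0, 20.3 and 24.4 CPM in negative libraries. It was 3.25-fold lower (log2 fold change -1.70, SE 0.20, edgeR adjusted p = 0.00139), and the groups lay far apart. Jam2 (JAM-B), the counter-receptor of Jam3 and a ligand of the Itga4 integrin, measured 4.23, 4.34 and 5.68 CPM in positive libraries, against 7.32, 12.0 and 26.3 CPM in negative libraries. The negative libraries spread more than 3-fold among themselves, with replicate 3 highest. Jam2 was 3.20-fold lower (log2 fold change -1.68, SE 0.43, edgeR adjusted p = 0.0269), and 2.03-fold lower without negative replicate 3. Its call ended with limma-voom and without negative replicate 3 or any 1 positive replicate (adjusted p at most 0.09).

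Esam, an endothelial junction protein also used as a stem cell marker, was the most abundant of the junctional genes per length, with 41.0 FPKM in positive and 66.0 FPKM in negative libraries on average. It measured 104, 119 and 130 CPM in positive libraries, against 156, 189 and 228 CPM in negative libraries, and was 1.62-fold lower (log2 fold change -0.70, SE 0.14, edgeR adjusted p = 0.0116). F11r (JAM-A), a ligand of the Itgal integrin, measured 62.7, 63.0 and 74.8 CPM in positive libraries, against 89.2, 95.2 and 129 CPM in negative libraries. It was 1.56-fold lower (log2 fold change -0.64, SE 0.15, edgeR adjusted p = 0.0191), a call lost when positive replicate 1 or 2 was left out (adjusted p = 0.0713 and 0.0708). For both genes every positive library was below every negative one. Pecam1 (CD31), a homophilic molecule of endothelium and blood cells, averaged 75.8 ± 4.61 CPM in F4/80 positive and 79.2 ± 3.60 CPM in F4/80 negative libraries (SD, n = 3 each). Its groups overlapped, with a log2 fold change of -0.06 (SE 0.09, edgeR adjusted p = 0.654).

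Alcam (CD166), a homophilic immunoglobulin-like molecule that also binds Cd6, fell with little spread. It measured 12.1, 12.1 and 11.5 CPM in positive libraries, against 33.9, 34.3 and 45.5 CPM in negative libraries. It was 3.20-fold lower (log2 fold change -1.68, SE 0.15, edgeR adjusted p = 0.000702). Marker lists with more genes called lower than higher included those of stem cells and of endothelium and stroma. Among all tested genes 10.9% were called lower and 9.65% higher. Stem cell markers had 9 of 15 lower and 0 higher, with a summed level of 3693 to 4033 CPM in positive and 5018 to 5987 CPM in negative libraries and none at 0. Endothelial and stromal markers had 4 of 11 tested lower and 1 higher (36.4% and 9.09%). Their summed level was 329 to 407 CPM in positive and 428 to 596 CPM in negative libraries. Emcn and Sox18, both lower, lost their calls without negative replicate 3 or positive replicate 1 or 3. Pdgfrb, which was higher, lost its call without positive replicate 3. Of the endothelial and stromal markers, Sox17, Lepr and Pdgfra were at 0 in all positive libraries. Lymphoid markers had 2 of 12 tested lower and 1 higher (16.7% and 8.33%), against 10.9% and 9.65% of all tested genes. Their median log2 fold change was -2.17. Their summed level was 361 to 386 CPM in positive and 168 to 283 CPM in negative libraries. Among the lymphoid markers, Cd3d, Cd3e, Cd3g and Cd8a were at 0 in all positive libraries. The part of these marker lists in the result was not tested. Cdh5, the cadherin of endothelial junctions, had 0 counts in each positive library and 6, 3 and 0 counts in negative replicates 1 to 3. A count of 0 allows up to 0.147 to 0.167 CPM, and this covers counting error only.

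**Figure D2:**
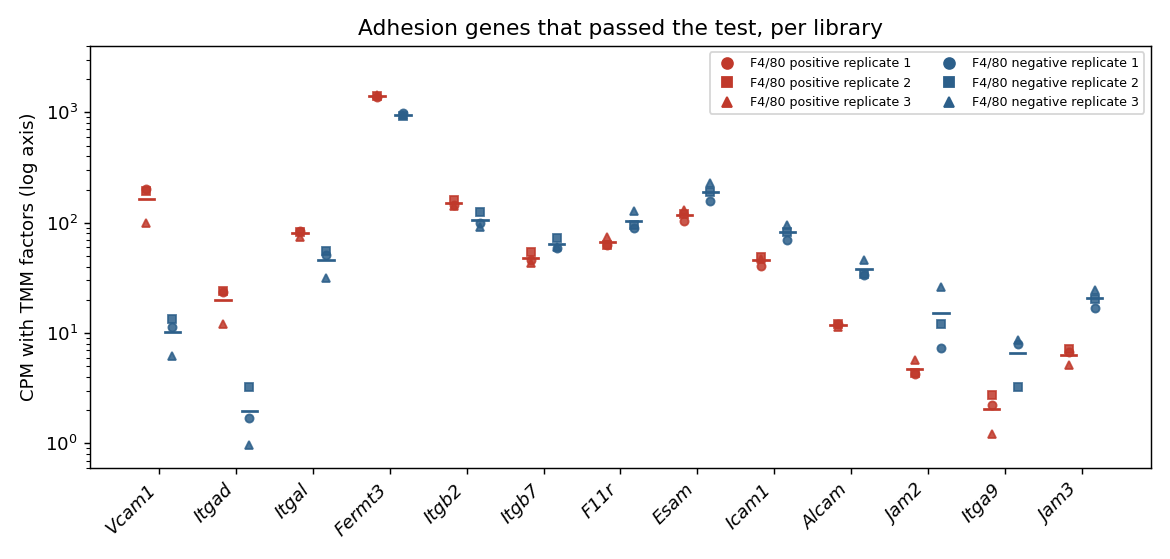
CPM of the 13 adhesion genes that passed the test, on a log axis, with 1 symbol per library and a line at the mean of each group. The groups do not overlap for any of the 13, and the gap is widest for Vcam1 and Itgad.

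Of the leukocyte integrins, Itgb2 and 2 of its 4 alpha partners, Itgal and Itgad, rose in F4/80 positive cells. Itgb2 (CD18), the shared beta subunit, measured 145, 161 and 143 CPM in positive libraries, against 100, 125 and 91.7 CPM in negative libraries. It was 1.42-fold higher (log2 fold change 0.50, SE 0.12, edgeR adjusted p = 0.0227). Leaving out any 1 library other than negative replicate 2 ended this call (adjusted p up to 0.0771). Itgal (CD11a), which forms LFA-1 with Itgb2, measured 83.8, 82.8 and 73.8 CPM in positive libraries, against 50.9, 55.1 and 31.9 CPM in negative libraries. It was 1.74-fold higher (log2 fold change 0.80, SE 0.18, edgeR adjusted p = 0.0187), and the call ended without positive replicate 1 or 2 (adjusted p = 0.0633 and 0.0606). Neither gene's groups overlapped.

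Itgad (CD11d), an alpha subunit known from red pulp macrophages of the spleen, had the largest change of the integrin subunits. It measured 23.5, 24.1 and 12.1 CPM in positive libraries, against 1.71, 3.25 and 0.975 CPM in negative libraries. Replicate 3 was the lowest in both groups, as for Vcam1. The log2 fold change was 3.33 (SE 0.43, edgeR adjusted p = 0.00183), and the macrophage markers given with Vcam1 moved with it. Itgax (CD11c), an alpha subunit of dendritic cells and macrophages, had 17, 22 and 19 counts in positive libraries, against 9, 9 and 1 counts in negative libraries. At 1.65 on the log2 scale (SE 0.65) it missed the threshold (edgeR adjusted p = 0.103). Itgam (CD11b), the alpha subunit of monocytes, neutrophils and many macrophages, measured 4.29, 4.95 and 3.18 CPM in positive libraries, against 4.44, 6.39 and 3.08 CPM in negative libraries. Its groups overlapped, with a log2 fold change of -0.17 (SE 0.33, edgeR adjusted p = 0.759). Neutrophil and monocyte markers had 0 higher and 2 lower of 16 tested, or 12.5% lower against 10.9% of all tested genes. Their summed level was 551 to 663 CPM in positive libraries, against 519, 1228 and 405 CPM in negative replicates 1 to 3. Itgam was highest in negative replicate 2 too, and without that library its log2 fold change was 0.14. Itgam, Itgax and Itgad are neighbours on GRCm39 chromosome 7, with 11055 bases between Itgam and Itgax and 3718 bases between Itgax and Itgad. They are related in sequence, so the split of reads between them is uncertain.

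Itgb1, the beta subunit of many matrix receptors, measured 583, 549 and 580 CPM in positive libraries, against 519, 468 and 509 CPM in negative libraries. The groups did not overlap, but the log2 fold change was 0.19 (SE 0.07) with an edgeR adjusted p of 0.0717, and it passed when blocked by replicate number (0.20 on the log2 scale, SE 0.05, adjusted p = 0.0193). Of its 6 tested alpha partners among the members 0 rose and 1 fell (16.7%), against 9.65% higher and 10.9% lower among all tested genes. Itga4, a subunit that binds Vcam1, measured 117, 93.6 and 112 CPM in positive libraries, against 118, 98.1 and 120 CPM in negative libraries. Its log2 fold change was -0.06 (SE 0.12, edgeR adjusted p = 0.753). Itga5, the fibronectin receptor subunit, averaged 110 ± 1.69 CPM in F4/80 positive and 111 ± 14.8 CPM in F4/80 negative libraries (SD, n = 3 each). Its log2 fold change was -0.01 (SE 0.11, edgeR adjusted p = 0.949). For both genes the groups overlapped.

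The partner among the members that fell was Itga9, which binds tenascin C and Vcam1. Itga3, outside the members, is given below. Itga9 measured 2.25, 2.73 and 1.22 CPM in positive libraries, against 8.01, 3.25 and 8.73 CPM in negative libraries. It was 3.23-fold lower (log2 fold change -1.69, SE 0.44, edgeR adjusted p = 0.0291). This call ended with limma-voom (adjusted p = 0.0501) and when any 1 library other than negative replicate 2 was left out (adjusted p up to 0.093). Itga9 overlaps the opposite-strand gene Gm10157, which had 210 counts over the 6 libraries against 512 for Itga9, and the use of strand in counting is not given in the sources used here. Itga6, a laminin receptor subunit, measured 87.6, 64.4 and 91.2 CPM in positive libraries, against 196, 73.3 and 120 CPM in negative libraries. Negative replicate 1 stood highest and the groups overlapped, with a log2 fold change of -0.68 (SE 0.31, edgeR adjusted p = 0.146). It passed with the replicate block (log2 fold change -0.59, SE 0.16, adjusted p = 0.028) and without negative replicate 2 (adjusted p = 0.0219). Itgav, a vitronectin receptor subunit, averaged 23.7 ± 6.49 CPM in F4/80 positive and 34.5 ± 8.46 CPM in F4/80 negative libraries (SD, n = 3 each). Its log2 fold change of -0.55 (SE 0.24) had an edgeR adjusted p of 0.137, and of 0.0173 with the block (log2 fold change -0.55, SE 0.14). Itga2, a collagen receptor subunit, averaged 10.9 ± 3.31 CPM in F4/80 positive and 10.6 ± 2.49 CPM in F4/80 negative libraries (SD, n = 3 each).

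Itgb7, which pairs with Itga4 for gut homing and with Itgae for binding E-cadherin, measured 46.1, 54.3 and 42.8 CPM in positive libraries, against 59.3, 73.0 and 60.6 CPM in negative libraries. It was 1.35-fold lower without overlap (log2 fold change -0.43, SE 0.13, edgeR adjusted p = 0.0428). Its call ended with no low-count filter (adjusted p = 0.0554) and without negative replicate 2 or 3 or positive replicate 1 or 3, with adjusted p up to 0.158. Itgae (CD103) averaged 2.03 ± 0.83 CPM in F4/80 positive and 1.37 ± 0.167 CPM in F4/80 negative libraries (SD, n = 3 each) and did not pass (log2 fold change 0.56, SE 0.42, edgeR adjusted p = 0.376). Haspin lies on the opposite strand across Itgae with 5355 counts over the 6 libraries against 195 for Itgae, so the Itgae values are uncertain. The fold change of Itgb4, the partner of Itga6 in epithelia, was -0.22 on the log2 scale (SE 0.24, edgeR adjusted p = 0.539), and that of Itgb5, a partner of Itgav, was -0.83 (SE 0.55, adjusted p = 0.318), so neither passed. Itga1, a collagen receptor subunit, was not tested. It had 5, 4 and 0 counts in positive libraries and 0 in all negative libraries.

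Per length, Itga5 led the alpha subunits in both groups, with 22.2 ± 0.391 FPKM in positive and 22.2 ± 2.94 FPKM in negative libraries (SD, n = 3 each). In positive libraries Itgal was second with 12.2 FPKM, then Itga6 with 8.85, Itga4 with 7.68 and Itgad with 4.40 FPKM. Itga6 and Itga4 overlapped there, as did Itgad and Itgav, which followed with 2.20 FPKM. In negative libraries Itga6 was second with 14.0 FPKM, then Itga4 with 7.94, Itgal with 6.93 and Itgav with 3.18 FPKM, while Itgad was ninth with 0.435 FPKM. There Itga5, Itga6 and Itga4 each overlapped the next in order, while Itgal did not overlap Itgav. Among beta subunits the order was Itgb1, Itgb2 and Itgb7 in both groups without overlap of neighbours. They averaged 140, 48.9 and 17.2 FPKM in positive libraries, against 121, 34.3 and 23.0 FPKM in negative libraries.

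Within the 4 alpha partners of Itgb2, Itgad made up 27.4%, 27.8% and 18.2% of their summed FPKM in positive replicates 1 to 3, against 4.16%, 6.87% and 3.80% in negative replicates 1 to 3. Itgal made up 67.1%, 65.7% and 76.2% in positive libraries, against 85.1%, 80.1% and 85.2% in negative libraries. Itgam made up 4.29% to 5.14% in positive and 9.72% to 12.1% in negative libraries. The shares of these 3 did not overlap between the groups, while that of Itgax did, with 0.998% to 1.33% in positive and 0.188% to 1.01% in negative libraries. They are shares of transcript level, and they do not give the amount of each heterodimer.

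**Figure D3:**
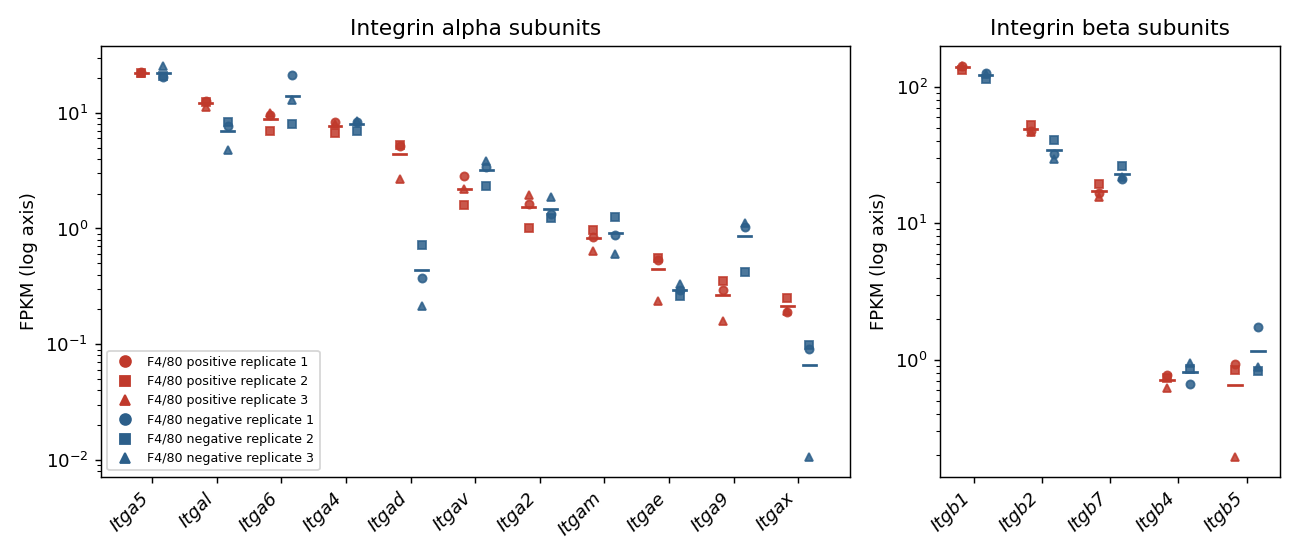
FPKM of the tested integrin alpha subunits (left) and beta subunits (right) on log axes, ordered by the mean in positive libraries, with 1 symbol per library and a line at each mean. Itgad and Itgal stand higher in positive libraries, and Itga5 and Itga4 lie at the same level in both groups.

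Each immunoglobulin-like ligand was then set against its integrin subunit within a library, as the log2 ratio of their FPKM with 0.01 added to both. The Vcam1 to Itga4 ratio was 1.45, 1.70 and 0.49 in positive libraries, against -2.70, -2.21 and -3.60 in negative libraries. Vcam1 thus stood above Itga4 in every positive library and below it in every negative one. The mean difference was 4.05, and it was 3.80 against Itgb1, 4.42 against Itgb7 and 5.59 against Itga9. The Icam1 to Itgal ratio was -0.45, -0.16 and -0.07 in positive libraries, against 1.06, 1.18 and 2.17 in negative libraries. Icam1 was thus below Itgal in every positive library and above it in every negative one, with a mean difference of -1.69.

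Other ligand ratios were lower in positive libraries too. The Icam1 to Itgb2 ratio averaged -2.23 ± 0.113 in positive and -0.86 ± 0.351 in negative libraries (SD, n = 3 each). F11r to Itgal averaged 1.04 ± 0.245 in positive and 2.50 ± 0.700 in negative libraries, and Jam3 to Itgam 1.26 ± 0.0776 in positive and 2.83 ± 0.690 in negative libraries. Jam2 to Itga4 had a mean difference of -1.42 and Icam2 to Itgal of -0.58. Only Icam1 to Itgam overlapped between the groups, with a mean difference of -0.73. Of the 11 pairs compared, 4 ratios lay higher and 6 lower without overlap. The exact two-sided permutation p was 0.1 for these, the smallest that 3 against 3 libraries allow, and 0.11 after adjustment over the 11 pairs, so no pair could pass. Pairs that share a gene are not independent.

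**Figure D4:**
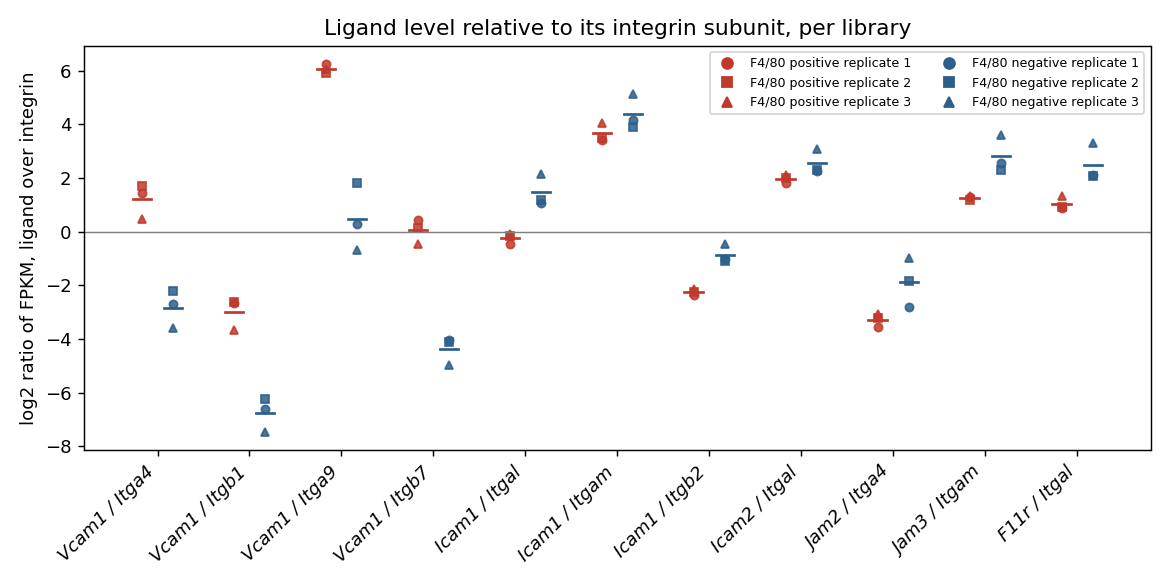
Log2 ratio of ligand to integrin FPKM for 11 pairs, with 1 symbol per library and a line at each group mean. The 4 Vcam1 ratios are higher in positive libraries, and the other ratios are lower there, with overlap only for Icam1 to Itgam.

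Fermt3 (kindlin-3), the kindlin of blood cells and platelets, rose. It measured 1368, 1414 and 1425 CPM in positive libraries, against 979, 928 and 944 CPM in negative libraries. The spread within each group was small beside the gap, with a log2 fold change of 0.56 (SE 0.06, edgeR adjusted p = 0.000814), or 1.48-fold. Fermt3 lies on GRCm39 chromosome 19, 6976326 to 6996837, minus strand. Tln1 (talin-1), the other activator, measured 955, 893 and 1071 CPM in positive libraries, against 890, 891 and 1067 CPM in negative libraries. Its groups overlapped, with a log2 fold change of 0.04 (SE 0.10, edgeR adjusted p = 0.826). Megakaryocyte and platelet markers moved with Fermt3, with 7 of 14 tested higher and 1 lower. Their summed level was 2972 to 3531 CPM in positive and 2369 to 2837 CPM in negative libraries, with none at 0. Macrophage markers, given with Vcam1, had 22 of 26 tested higher. Mast cell, basophil and eosinophil markers had 3 of 6 tested higher and 0 lower, with Epx and Prss34 at 0 in all negative libraries. Of the 3, Fcer1a lost its call with limma-voom and without any 1 negative replicate or positive replicate 3. Ms4a2 lost its call without positive replicate 1 or 3. Among all tested genes 9.65% were called higher and 10.9% lower. The part of these marker lists was not tested. All 18 mitosis genes were higher as well, with a median log2 fold change of 1.14. Their summed level was 4262 to 4851 CPM in positive and 1721 to 2341 CPM in negative libraries.

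Among the other receptors, Cd44, the hyaluronan receptor, averaged 173 ± 19.5 CPM in F4/80 positive and 180 ± 6.37 CPM in F4/80 negative libraries (SD, n = 3 each). Its log2 fold change was -0.06 (SE 0.09, edgeR adjusted p = 0.673). Selplg (PSGL-1), the selectin ligand of leukocytes, averaged 265 ± 9.39 CPM in F4/80 positive and 259 ± 5.11 CPM in F4/80 negative libraries (SD, n = 3 each), with a log2 fold change of 0.04 (SE 0.07, edgeR adjusted p = 0.738). Both genes had overlapping groups. Mcam (CD146), an endothelial and stromal molecule, had 0, 16 and 2 counts in positive and 7, 17 and 8 counts in negative libraries. Cdh2 (N-cadherin) had 2, 1 and 0 counts in positive and 2, 6 and 0 counts in negative libraries. Neither was tested.

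The remaining genes of the pathway were taken from 5 lists chosen with earlier results known. Their counts stand beside 9.65% called higher and 10.9% called lower among all tested genes. Of 4 tested integrin subunits outside the members, 3 rose and 1 fell. Itga2b (CD41), a platelet and stem cell integrin subunit, measured 924, 810 and 1058 CPM in positive libraries, against 356, 292 and 244 CPM in negative libraries (log2 fold change 1.65, SE 0.15, edgeR adjusted p = 0.000659). Its partner Itgb3 measured 118, 90.9 and 152 CPM in positive libraries, against 51.4, 44.0 and 92.6 CPM in negative libraries. The groups of Itgb3 overlapped, with a log2 fold change of 0.94 (SE 0.28, edgeR adjusted p = 0.0449). Its call ended with no composition factor, with DESeq2 and when any 1 library other than negative replicate 3 was left out (adjusted p up to 0.15). Both genes are also megakaryocyte markers. Itgb6 had a log2 fold change of 1.63 (SE 0.25). Itga3, a laminin receptor subunit, was lower, with a log2 fold change of -2.07 (SE 0.44). The Itga3 call was lost when negative replicate 3 or positive replicate 1 or 2 was left out (adjusted p at most 0.0509).

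Of 44 tested integrin activation and adaptor genes 11 rose and 6 fell (25.0% and 13.6%), with a median log2 fold change of 0.12. Ptk2, the focal adhesion kinase, averaged 9.34 ± 1.64 CPM in F4/80 positive and 25.6 ± 3.07 CPM in F4/80 negative libraries (SD, n = 3 each), a log2 fold change of -1.45 (SE 0.18). Fyb, an adaptor of T cells, platelets and myeloid cells, had a log2 fold change of 0.97 (SE 0.12), Lims1 (PINCH-1), a partner of integrin-linked kinase, of 0.76 (SE 0.11) and the tetraspanin Cd9 of 0.78 (SE 0.12). Of 19 matrix ligands 1 rose and 4 fell (5.26% and 21.1%), with a median of -0.46. The basement membrane collagen genes Col4a1 and Col4a2 fell by 1.02 and 1.07 on the log2 scale, and Tgfb1 rose by 0.88. Ccn3, a matricellular protein, was lower with a log2 fold change of -4.65 (SE 0.76), and it was 25.04-fold lower with all libraries, 109-fold without positive replicate 2 and 16.3-fold without positive replicate 3.

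Of 20 junction scaffold and other junction genes, 1 was called higher and 4 lower (median log2 fold change -0.20). Ocln (occludin), a tight junction protein, averaged 2.35 ± 0.470 CPM in F4/80 positive and 19.6 ± 6.85 CPM in F4/80 negative libraries (SD, n = 3 each), a log2 fold change of -3.06 (SE 0.31). Cldn5 (claudin-5), which is also an endothelial marker, had a log2 fold change of -4.84 (SE 0.85). Its fold was 28.7, 17.9 without negative replicate 3, 18.7 without positive replicate 3 and 75.1 without positive replicate 2. Afdn (afadin) and Cxadr, a junction receptor related to the JAM family, were lower by log2 fold changes of -0.76 (SE 0.19) and -1.50 (SE 0.37). The Afdn call ended without negative replicate 1 or 3 or positive replicate 2 or 3, and that of Cxadr when any 1 library other than negative replicate 1 was left out, with adjusted p up to 0.0813 and 0.0822. Of 19 genes of selectins, sialomucins and their enzymes 3 rose and 4 fell (15.8% and 21.1%), with a median of 0.00. Cd24a, a mucin-like surface protein, was lower by a log2 fold change of -0.69 (SE 0.07). Hmmr, a hyaluronan-binding protein that is also in the mitosis list, rose by 1.13 (SE 0.09). Emcn (endomucin), also an endothelial marker, was lower by a log2 fold change of -1.12 (SE 0.24), but it lost its call when negative replicate 3 or positive replicate 1 or 3 was left out (adjusted p at most 0.058).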

How the data were processed

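RNA was measured in 6 libraries of sorted mouse hematopoietic stem cells, 3 F4/80 positive and 3 F4/80 negative. Per the labels' protocols, a micro column kit served for RNA and a SMARTer stranded kit for the libraries. Per the submitters' processing notes, the build was GRCm39 (mm39), and HISAT2 2.0.5 and DESeq2 are named with no role. Which counter and annotation release were used, and whether by strand, is not given here. The authors deposited 1 table with raw counts per gene, FPKM per gene length, a normalized signal (counts over a size factor for each library), and their own log2 fold changes and p-values. Only the counts were tested. FPKM served to compare levels between genes. No value column belonged to other samples.

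The main test was that of edgeR 4.0.16 under R 4.3.3 (filterByExpr with minimum count 10 and minimum total 15, TMM factors, glmQLFTest, Benjamini-Hochberg over all tested genes). Standard errors were derived from the F statistic. The fit was tested on simulated data. Alternatives were other scalings and filters, DESeq2 1.42.0, limma-voom (limma 3.58.1), the replicate block and leaving out each library. Replicates were distinct beyond counting error (chi-square per degree of freedom 11.8 to 24.9). Same-numbered libraries of the 2 groups deviated together (correlation 0.214 to 0.284, all above 0.1), so the blocked value is printed where it changes a call. This pairing rests on the replicate numbers of the labels and on that check. Members and lists were chosen with earlier results of these data known. The text names all members, up to 4 called genes with the lowest p of each pathway list, Adgre1, Kit, the markers at 0 and those a result turns on. One gene that this rule names is not reported here.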

Additional observations from a re-analysis of the deposited data

How the results depend on the processing

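Of the 13 called members, 7 kept their call under all 13 alternatives: Itgad, Vcam1, Icam1, Jam3, Esam, Alcam and Fermt3. With every alternative that keeps the 6 libraries, 10 of the 13 kept it. Over the fits that leave out 1 library, members called higher numbered 3 to 5 (5 with all libraries) and members called lower 4 to 8 (8 with all libraries). Pathway list genes numbered 12 to 17 higher and 11 to 20 lower in these fits, against 19 and 19. The calls over all genes numbered 1458 to 3049 there, against 2967 with all libraries. With the replicate block, 7 members were higher and 10 lower, pathway genes numbered 22 and 23, and calls over all genes 4534. The block added Itgb1, Icam2, Itga6 and Itgav and ended no call of a member. None of the 11 ligand ratios changed direction when 1 library was left out.

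The direction of 7 members without a call changed. Itga4 ranged over -0.14 to 0.034 (log2 fold change) when 1 library was left out. Itga5 had 0.0011 with no low-count filter, 0.00013 with DESeq2, and -0.068 to 0.11 with 1 library left out. Itga2 had -0.038 without a composition factor, and -0.17 to 0.26 with 1 library left out. Itgam ranged over -0.39 to 0.14 and Cd44 over -0.15 to 0.0055 in those fits. Selplg had -0.040 and Tln1 -0.041 with no composition factor. Leaving out 1 library gave Tln1 values of -0.034 to 0.13. The cause was not tested. Depth limits Itga1, Mcam, Cdh5 and Cdh2, which had at most 17 counts in any library.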

Other observations

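Itga8, an alpha subunit that pairs with Itgb1, did not pass the filter on low counts and was singled out after its values were seen. It had 37, 8 and 35 counts in positive libraries, and 0 counts in each negative library, which allows up to 0.146 to 0.157 CPM there.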
